A study of Homo sapiens with 3 samples.

Results

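AOPEP, FTX, MIR17HG and DLEU2 are 4 human transcripts that carry microRNA hairpins, and the places where the polyadenylation factor CSTF2tau was crosslinked to them were mapped in BE(2)-C cells. BE(2)-C is an established neuroblastoma line derived from a bone marrow metastasis, and the labels give its genotype as WT. The series holds 1 group of 3 biological replicates, all immunoprecipitated with an anti-CSTF2tau antibody by sCLIP. sCLIP fixes proteins to the RNA they touch with ultraviolet light, trims that RNA with an enzyme and sequences what the antibody pulls down. Neither an input nor a control antibody sample was analysed here, so binding and RNA abundance cannot be told apart.

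The members were chosen by gene ID: every peak whose name carries the Ensembl ID of a host was taken. These are 4 of 13356 gene IDs, with 940 of 202310 listed peaks. AOPEP (ENSG00000148120, chr9:97490872-97849528, plus strand) was picked with its signal near the 3′ end already known, so that pattern is described here and not tested. FTX is ENSG00000230590 (chrX:73238788-73512402, minus strand), MIR17HG is ENSG00000215417 (chr13:92001383-92006920, plus strand) and DLEU2 is ENSG00000231607 (chr13:50602772-50697061, minus strand). These hg19 intervals are listed spans, which run from the first to the last peak over the 3 replicates, and are not annotated transcript ends. All 4 hosts lie on the chromosome that RefSeq gives for their symbol. No hg19 annotation was used here, so exons, introns and annotated 3′ ends were not placed. Neuroblastoma marker genes and other microRNA hosts were not analysed here, because the files hold gene IDs only and the reference table pairs 0 Ensembl IDs with symbols.

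CSTF2tau is a paralogue of CSTF2, the subunit of the cleavage stimulation factor that contacts GU-rich and U-rich RNA downstream of poly(A) sites. A microRNA starts as a hairpin inside a longer primary transcript. The Microprocessor, made of DROSHA and DGCR8, cuts the hairpin out in the nucleus, and DICER1 then releases the mature microRNA. AOPEP encodes aminopeptidase O and carries miR-23b, miR-27b and miR-24-1. FTX is a long noncoding RNA of the X-inactivation centre that carries 2 separate pairs, miR-374a with miR-545 and miR-374b with miR-421. MIR17HG is the noncoding primary transcript of the miR-17-92 cluster, a known target of MYC and MYCN, and carries 6 hairpins. DLEU2, from a region often deleted in chronic lymphocytic leukaemia, carries miR-15a and miR-16-1.

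The hairpins matter here as landmarks, because each peak was placed by its distance to them. The RefSeq tables (GRCh38.p14) gave 14 hairpin and 28 mature sequences for the 15 hairpins, with 24 distinct seeds. The seed is the stretch from base 2 to base 8 that pairs with targets, and it stands in capitals in the mature microRNAs shown. AOPEP carries 3 hairpins, and their 3′ arms have different seeds.
hsa-miR-23b-3p: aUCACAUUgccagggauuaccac
hsa-miR-27b-3p: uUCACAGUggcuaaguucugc
hsa-miR-24-3p: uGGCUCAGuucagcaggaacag

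The hairpins of the other hosts fall partly into seed families. In MIR17HG, miR-17-5p and miR-20a-5p share a seed, and miR-19a-3p and miR-19b-3p share another. In DLEU2, miR-15a-5p and miR-16-5p share a seed. In FTX, miR-374b-5p and miR-421, from the pair with peaks nearby, do not share one. The 5′ arm of miR-374a was not among the mature sequences, so its seed was not compared.
hsa-miR-17-5p: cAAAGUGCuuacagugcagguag
hsa-miR-20a-5p: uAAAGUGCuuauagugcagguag
hsa-miR-19a-3p: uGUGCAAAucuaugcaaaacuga
hsa-miR-19b-3p: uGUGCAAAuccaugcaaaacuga
hsa-miR-92a-3p: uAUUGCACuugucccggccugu
hsa-miR-15a-5p: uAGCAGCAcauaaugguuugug
hsa-miR-16-5p: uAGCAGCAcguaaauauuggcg
hsa-miR-374b-5p: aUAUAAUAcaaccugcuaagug
hsa-miR-421: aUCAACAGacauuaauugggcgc

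The peak lists differed in size. Replicates 1, 2 and 3 held 105203, 18346 and 78761 peaks with 736059, 108434 and 387784 reads, where reads are the last number in each peak's name. Reads outside listed peaks are not in these totals, which do not give the sequencing depth. A share is a host's percentage of them, with an exact Clopper-Pearson 95% interval that covers counting error only. Minus-strand gene IDs held 48.7%, 49.6% and 62.9% of the reads, which touches the shares of hosts on either strand. Whether the strand balance or the size of replicate 2 plays a part in any result was not tested.

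FTX and AOPEP were among the transcripts with the most CSTF2tau reads, whereas DLEU2 and MIR17HG had far fewer. FTX held 0.364% (0.350 to 0.378%), 0.765% (0.714 to 0.819%) and 0.306% (0.289 to 0.324%) of the reads in replicates 1, 2 and 3. Its mean of 0.478% ± 0.250 (SD, n = 3) was rank 4 of 13356 gene IDs. Replicate 2 stood highest, and as a share of minus-strand reads alone FTX had 0.748%, 1.54% and 0.487%.

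AOPEP held 0.186% (0.177 to 0.196%), 0.615% (0.569 to 0.663%) and 0.153% (0.141 to 0.165%), from 1371, 667 and 592 reads in 144, 72 and 94 peaks. The mean of 0.318% ± 0.258 (SD, n = 3) was rank 15. Replicate 2 again lay highest, 4.03 times the lowest replicate, and without it the mean was 0.169%. As a share of plus-strand reads alone AOPEP had 0.363%, 1.22% and 0.411%, so that replicate 1 was lowest. FTX had 2680, 830 and 1186 reads in 290, 111 and 147 peaks, more than AOPEP in every replicate. Without peaks that overlap a peak of another gene ID, FTX had 2159, 502 and 821 reads and AOPEP 1362, 640 and 592. FTX then lay below AOPEP in replicate 2, and the mean shares were 0.323% for FTX and 0.310% for AOPEP. With every listed peak, the ranges of the FTX and AOPEP shares over the replicates overlapped as well.

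DLEU2 held 0.0425% (0.0379 to 0.0475%), 0.0129% (0.00706 to 0.0217%) and 0.0554% (0.0483 to 0.0634%), a mean of 0.0370% ± 0.0218 (SD, n = 3) and rank 434. It had 38, 2 and 35 peaks with 313, 14 and 215 reads. Of the 4 hosts, DLEU2 alone was lowest in replicate 2, where its 14 reads formed 2 peaks.

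MIR17HG held 0.00421% (0.00286 to 0.00598%), 0.0157% (0.00913 to 0.0251%) and 0.00284% (0.00142 to 0.00508%), a mean of 0.00758% ± 0.00705 (SD, n = 3) and rank 2882. It rested on 4, 2 and 1 peaks with 31, 17 and 11 reads, and without replicate 2 the mean was 0.00352%. DLEU2 lay above MIR17HG in replicates 1 and 3 and below it in replicate 2, so the order of these 2 hosts was not settled. All shares of DLEU2 and MIR17HG lay below all shares of AOPEP and FTX. All 4 hosts had a peak in every replicate, as did 33.0% of all gene IDs.

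**Figure D1:**
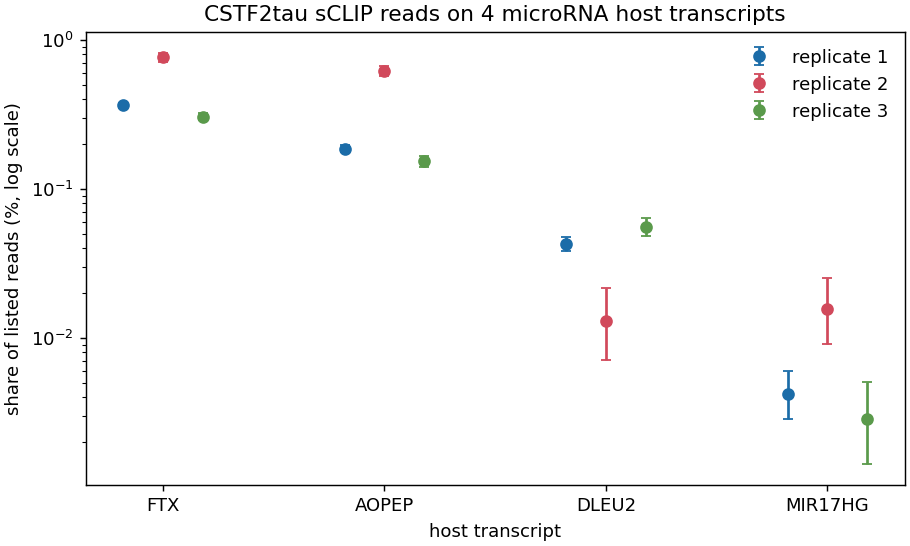
Share of listed reads (%, log scale) for each host transcript on the horizontal axis, with 1 point per replicate and bars for the exact 95% interval of counting error. FTX and AOPEP lie above DLEU2 and MIR17HG in every replicate, and replicate 2 is highest for all hosts but DLEU2.

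The order differed once the length of the listed span was taken into account, since MIR17HG spans 5.538 kb and AOPEP 358.657 kb. Mean shares per Mb of span were 1.75% for FTX, 1.37% for MIR17HG, 0.887% for AOPEP and 0.392% for DLEU2. Without replicate 2 they were 1.22%, 0.636%, 0.472% and 0.519% in the same order of hosts, so that AOPEP lay below DLEU2. The median over the 4414 gene IDs with peaks in all 3 replicates was 0.201% per Mb. By replicate, MIR17HG had 0.760, 2.83 and 0.512% per Mb and FTX had 1.33, 2.80 and 1.12% per Mb. These ranges overlapped, and so did those of AOPEP, with 0.519, 1.72 and 0.426% per Mb, and DLEU2, with 0.451, 0.137 and 0.588% per Mb.

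The gene IDs most like each host in their shares were sought among those with at least 20 reads in every replicate, by the summed absolute log2 difference over the 3 replicates. For AOPEP the nearest of 910 was ENSG00000167244 (chr11:2150401-2159912, minus strand), at 0.59, with shares of 0.239%, 0.669% and 0.166%. The next was ENSG00000122254 (chr16:22826500-22927725, plus strand), at 1.02, with 0.141%, 0.409% and 0.156%. For FTX the nearest was ENSG00000218336 (chr4:183066281-183722504, plus strand), at 0.62, with 0.289%, 0.755% and 0.254%. After it came ENSG00000145362 (chr4:113740306-114304950, plus strand), at 0.86, with 0.456%, 0.571% and 0.330%. MIR17HG and DLEU2 did not reach 20 reads in every replicate, so none were sought for them.

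Most merged peak regions of AOPEP and FTX were seen in 1 replicate, but a larger share than over all gene IDs returned in another. Overlapping peaks of a gene ID, by at least 1 nt, were merged over the replicates into loci. A shared locus thus holds overlapping peaks, which need not mark the same crosslinked base. AOPEP had 216 loci, of which 55 (25.5%) had a peak in at least 2 replicates and 11 in all 3. FTX had 379, of which 101 (26.6%) were in at least 2 and 24 in all 3. Over all gene IDs, 8.54% of loci had a peak in at least 2 replicates and 0.882% in all 3. Both hosts carry many reads, and among loci with at least 20 reads the counts were 26 of 30 for AOPEP and 61 of 71 for FTX, against 66.6% over all gene IDs. Without replicate 1, 25 AOPEP and 35 FTX loci were left in at least 2 replicates, since only 1 pair of lists remained.

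DLEU2 had 10 of 63 loci (15.9%) in at least 2 replicates and none in all 3. MIR17HG had 1 of 6 (16.7%) in at least 2, and the share over all gene IDs was 8.54%. Without replicate 1 DLEU2 had 0 and MIR17HG 1. Among loci with at least 20 reads, 5 of 8 for DLEU2 and 1 of 1 for MIR17HG were in at least 2 replicates, against 66.6% over all gene IDs. The loci found in at least 2 replicates held 49.5%, 77.1% and 59.0% of the AOPEP reads and 48.4%, 64.3% and 72.1% of the FTX reads. For DLEU2 they held 27.5%, 28.6% and 37.2%. Loci seen in a single replicate thus carried the larger part of the DLEU2 reads in all 3 replicates, with only 14 reads in replicate 2. These shares of reads were not computed over all gene IDs, so they have no background here.

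Reads per kb on AOPEP were highest around the microRNA cluster at the 3′ end of its listed span, although only in replicate 2 did most reads lie there. The last 10% of the span held 37.6%, 74.8% and 38.3% of the AOPEP reads, from 516, 499 and 227 reads, a mean of 50.3% ± 21.3 (SD, n = 3). The miR-23b/27b/24-1 cluster is 881 nt long and lies 99.6% of the way along the span, 1.158 kb before its 3′ end. The region within 5 kb of the cluster makes up 1.96% of the span. It held 24.9% (22.7 to 27.3%), 68.5% (64.8 to 72.0%) and 31.9% (28.2 to 35.8%) of the AOPEP reads, a mean of 41.8% ± 23.4 (SD, n = 3).

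In reads per kb, that region had 48.6, 64.9 and 26.9 in replicates 1, 2 and 3, against 2.93, 0.597 and 1.15 in the rest of the span. The ratios were 16.6, 109 and 23.4. The region stood higher in all 3 replicates, most of all in replicate 2, where the rest of the span held the fewest reads. Within 1 kb of the cluster alone lay 202, 240 and 99 reads, or 14.7%, 36.0% and 16.7% of the AOPEP reads.

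The rise lay within the last 5 kb before miR-23b. Between 10 and 5 kb upstream of the hairpin, AOPEP had 3.4, 2.8 and 1.4 reads per kb. The next 5 kb, up to the hairpin, had 46.8, 66 and 28.6 reads per kb, and from the hairpin to the end of the span there were 53.0, 62.3 and 22.6. A second and broader region lay 100 to 50 kb upstream, with 12.8, 2.74 and 4.14 reads per kb. It held 641, 137 and 207 reads, or 46.8%, 20.5% and 35.0%, so in replicates 1 and 3 it held more of the AOPEP reads than the region around the cluster.

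The 5′ part of AOPEP was thinly covered. More than 100 kb upstream of miR-23b there were 20, 0 and 24 peaks with 139, 0 and 125 reads, or 0.542, 0 and 0.487 per kb. These made up 10.1%, 0% and 21.1% of the AOPEP reads. The longest stretch with no peak was 27.183 kb, from position 97665878 to 97693062, with 128, 0 and 97 reads on its 5′ side. Replicate 2 had no AOPEP peak before position 97758357.

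**Figure D2:**
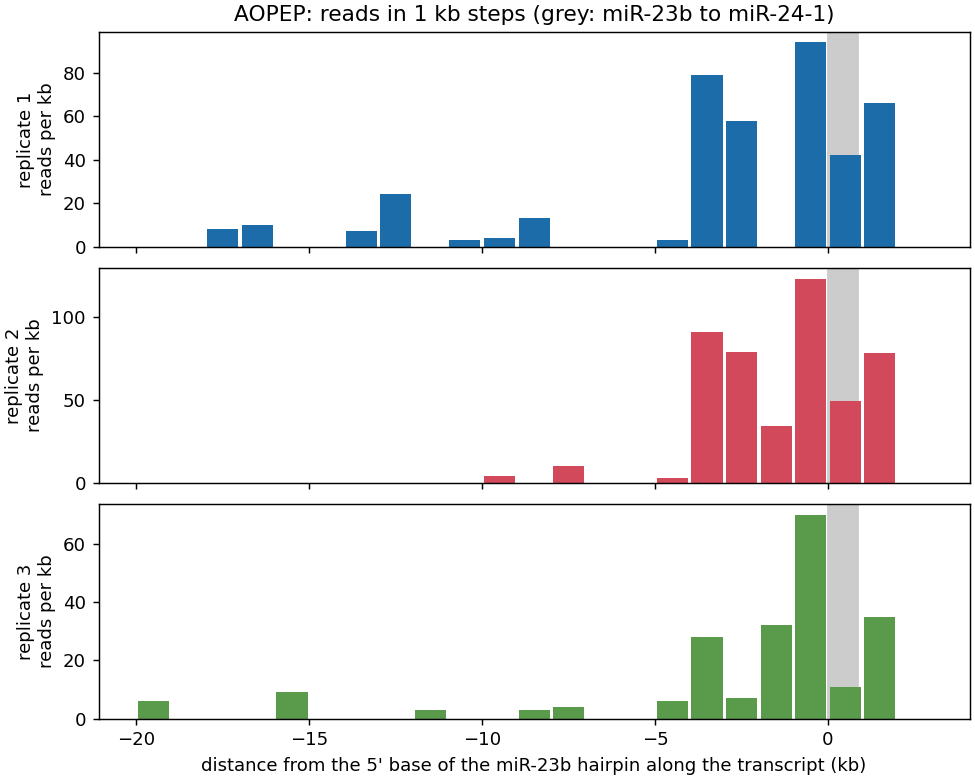
Reads per kb on AOPEP in each replicate (separate vertical scales), in steps of 1 kb along the transcript from the 5′ base of the miR-23b hairpin, with the 881 nt cluster in grey. The tallest bar of each replicate, with 94, 123 and 70 reads, is the 1 kb just before the hairpin, and bar heights within the last 4 kb differ between replicates, with no reads in one step of replicate 1.

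Among the 11 AOPEP loci found in all 3 replicates, the one with the highest mean share lay just before the cluster. At chr9:97846515-97846710, 780 nt upstream of the miR-23b hairpin, it had 47, 57 and 35 reads, or 0.00639%, 0.0526% and 0.00903% of all listed reads. The mean of 0.0227% ± 0.0259 (SD, n = 3) rested on replicate 2 and was 0.00771% without it. In replicate 1 other AOPEP loci had more reads. It held the strongest AOPEP peak of replicates 2 and 3, at chr9:97846590-97846693 with 57 reads and chr9:97846582-97846705 with 29 reads. Each list also gives a stretch of at most 4 nt inside every peak, and in the strongest peak of the 3 replicates these stretches lay within 10 nt of each other. The median of that range over all loci of all gene IDs in 3 replicates was 46 nt, and over the 11 such AOPEP loci it was 81 nt. Over loci in at least 2 replicates it was 24 nt for AOPEP and 28 nt for FTX, against 25 nt over all gene IDs. The strongest peak of replicate 1 lay elsewhere, at chr9:97790506-97790700, with 54 reads, in the upstream region.

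The next loci by mean share also surrounded the hairpins. The locus at chr9:97844187-97844468, 3022 nt upstream of miR-23b, had 56, 51 and 22 reads. The locus at chr9:97847769-97848296, which reaches into miR-27b, had 42, 44 and 11. The locus at chr9:97848604-97848990, 234 nt past miR-24-1, had 52, 39 and 6, and the one at chr9:97847279-97847525, which reaches into miR-23b, had 37, 30 and 16. Replicate 3 had the fewest reads at each of them. Of the 11 AOPEP loci in all 3 replicates, 8 lay within 5 kb of a hairpin, and the farthest lay 77527 nt away. Of all AOPEP peaks, 29 of 144, 37 of 72 and 20 of 94 lay within 5 kb of the cluster in replicates 1, 2 and 3. Each locus in all 3 needs a peak in replicate 2, so the 8 are not independent of where the peaks of that replicate lay.

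At the level of single bases, peaks lay beside and between the AOPEP hairpins more than on them. Over the 262 nt of the 3 hairpins, 13.7%, 34.4% and 1.53% of the bases were under a peak. Over the 619 nt between them, the values were 48.6%, 76.6% and 24.9%. In the 1 kb before the cluster they were 50.6%, 63.6% and 48.8%, and in the 1 kb after it 41.3%, 62.7% and 22.6%. The last AOPEP peak of replicate 1 ended at 97848990, before the end of that 1 kb. Whether its list stops short there was not tested. Hairpin bases were covered least in each replicate.

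The only hairpin reached in all 3 replicates was miR-23b, and only from its 5′ side. Peaks covered bases 1 to 36, 1 to 35 and 1 to 4 of its 97 nt, counted from the 5′ end, with 10, 8 and 3 reads. The miR-27b hairpin was reached in replicate 2 alone, where a peak of 22 reads covered bases 43 to 97, its 3′ side. The miR-24-1 hairpin was touched in none, although a peak of 22 reads ended 7 nt before it in replicate 2. The hairpins that were reached are shown with the mature arms in capitals.
hsa-mir-23b: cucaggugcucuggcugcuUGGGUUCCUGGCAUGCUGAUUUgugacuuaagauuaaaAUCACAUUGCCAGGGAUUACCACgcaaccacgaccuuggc
hsa-mir-27b: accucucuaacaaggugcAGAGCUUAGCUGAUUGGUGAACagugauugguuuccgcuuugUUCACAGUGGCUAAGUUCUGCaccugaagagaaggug

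Thus the covered bases of miR-23b took in most of the 5′ arm in replicates 1 and 2 and none of the 3′ arm in any replicate. Over all hosts, 6 of the 45 pairs of a hairpin and a replicate had a host peak on the hairpin. These involved 3 of the 15 hairpins, 12 were touched in no replicate, and none was covered from end to end. Some reads at hairpins were listed under other gene IDs, which the files do not name. In replicate 2, ENSG00000207864 had a peak of 8 reads that overlapped miR-27b by 66 nt, and ENSG00000207563 had 3 reads in a peak 19 nt past miR-23b.

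**Figure D3:**
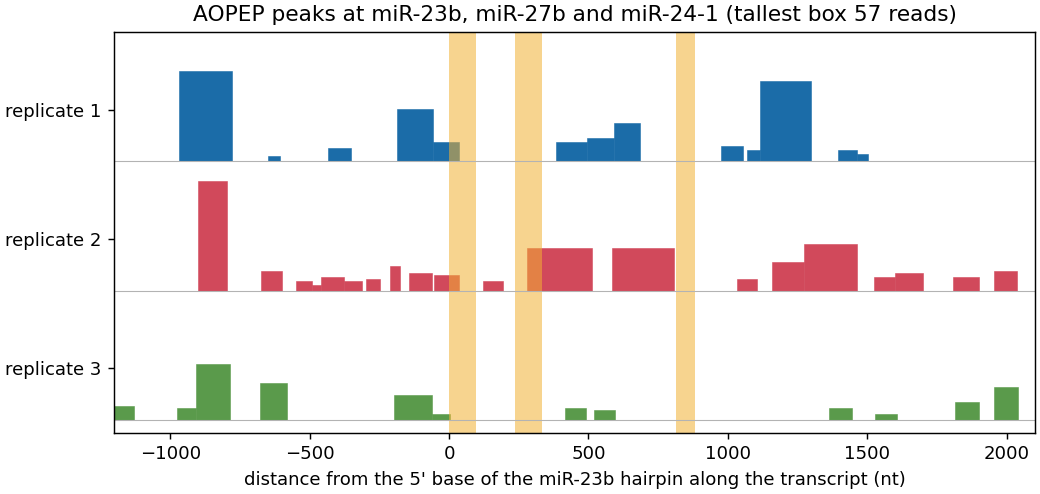
AOPEP peaks in each replicate, drawn as boxes as wide as the peak and as tall as its reads (1 scale, tallest 57 reads), along the transcript in nt from the 5′ base of the miR-23b hairpin; orange bands mark miR-23b, miR-27b and miR-24-1 from left to right. A tall box 780 nt or more upstream is present in all 3 replicates, and the boxes mostly flank the bands.

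FTX reads lay along the first part of its span and were not gathered at 1 microRNA cluster. With the span cut into 10 equal segments, the first 4, or 109.446 kb, held 89.9%, 92.7% and 91.7% of the FTX reads, a mean of 91.4% ± 1.38 (SD, n = 3). This boundary was chosen after the values had been seen. Beyond it, no segment held more than 4.82% in any replicate. The first 4 segments were more even in replicates 1 and 3 than in replicate 2, where the fourth alone held 49.6%, against 20.5% and 23.1%.

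The 2 FTX clusters differed. The miR-374b/miR-421 pair lies inside the first 4 segments, 27.1% of the way along the span, with 277, 73 and 174 reads within 5 kb. The miR-374a/miR-545 pair lies near the 5′ end, at 1.95% of the span, and had 0 reads within 5 kb in all 3 replicates. It falls in the longest FTX stretch with no peak, 11.487 kb between positions 73500849 and 73512337. Upstream of that stretch FTX had 4, 0 and 0 reads. The first peaks after the pair lay 6090, 8047 and 6819 nt downstream in replicates 1, 2 and 3.

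Together the regions within 5 kb of either pair held 10.3%, 8.80% and 14.7% of the FTX reads in 7.49% of the span, a mean of 11.3% ± 3.05 (SD, n = 3). The reads per kb there were 1.42, 1.19 and 2.12 times those in the rest of the span, against 16.6, 109 and 23.4 for AOPEP. These FTX ratios pool both pairs, and all reads within 5 kb lay near miR-374b/miR-421. The ratio for that pair alone would be higher and was not computed. Once peaks that overlap a peak of another gene ID were left out, the pooled FTX excess was seen in replicate 2 alone. This step kept the length of the regions and left 98, 54 and 23 FTX reads in them. The share within 5 kb was then 4.54%, 10.8% and 2.80%, a mean of 6.03%, and the ratios were 0.587, 1.49 and 0.356. For AOPEP the same step left ratios of 16.7, 102 and 23.4. The miR-421 hairpin was reached at bases 1 to 52 of 85 nt in replicate 1, with 10 reads, and at bases 1 to 18 in replicate 3, with 7 reads. Replicate 2 had no FTX peak on it, and no FTX peak touched miR-374b, miR-374a or miR-545. The capitals mark the mature miR-421, which lies mostly 3′ of the covered bases.
hsa-mir-421: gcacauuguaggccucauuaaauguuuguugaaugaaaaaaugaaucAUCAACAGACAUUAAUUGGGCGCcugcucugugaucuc

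Other gene IDs also had peaks on these hairpins, on the same strand. Peaks of ENSG00000271430 overlapped miR-421 by 29 nt in replicate 1, with 6 reads, and by 14 nt in replicate 3, with 5 reads. In replicate 3, ENSG00000212027 had a peak of 7 reads that overlapped miR-421 by 11 nt and miR-374b by 3 nt. Among the FTX loci in all 3 replicates, the one with the highest mean share, at chrX:73437084-73437478, lay 734 nt past miR-421 and had 32, 17 and 52 reads. In replicate 3, only 23 FTX reads within 5 kb of the pairs lay in peaks that overlap no other gene ID. Most of the 52 reads of this locus thus lay in peaks that overlap another ID. The next loci by mean share were chrX:73458293-73458385 with 10, 23 and 3 reads, chrX:73416411-73416586 with 31, 13 and 23, and chrX:73429531-73429786 with 17, 16 and 19. The replicates did not share a strongest peak: it was chrX:73497961-73498078 with 65 reads in replicate 1, chrX:73425457-73425592 with 26 in replicate 2 and chrX:73487948-73488094 with 29 in replicate 3. Of the 24 FTX loci in all 3 replicates, 6 lay within 5 kb of a hairpin. Of all FTX peaks, 33 of 290, 11 of 111 and 20 of 147 did so in replicates 1, 2 and 3.

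Some FTX peaks are also listed elsewhere. In replicates 1, 2 and 3, 47, 31 and 40 FTX peaks overlapped a peak of another gene ID on the same strand, against 1, 2 and 0 AOPEP peaks and none of MIR17HG and DLEU2. ENSG00000271430 accounted for most, with 117 of its 119 peaks in the FTX span lying on FTX peaks. Reads in such peaks cannot be assigned to either ID.

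**Figure D4:**
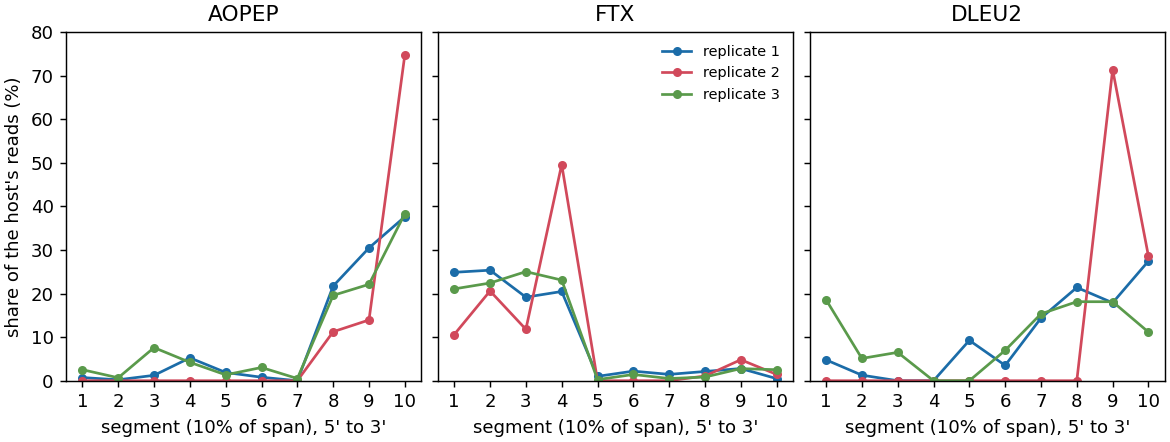
Share of each host's reads (%) in successive segments of 10% of its listed span, from 5′ to 3′, with 1 line per replicate, for AOPEP, FTX and DLEU2. Most AOPEP reads lie in the last 3 segments and peak in the last, while most FTX reads lie in the first 4.

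MIR17HG reads lay almost wholly downstream of its hairpins. Of 31, 17 and 11 reads, 28, 17 and 11 were downstream of miR-92a-1, the last hairpin, and 0 overlapped any of the 6 hairpins, which cover 473 nt. The single peak upstream had 3 reads, in replicate 1, at chr13:92001383-92001430, 1429 nt before miR-17. The longest gap in MIR17HG, 2.317 kb between positions 92001430 and 92003748, holds all 6 hairpins.

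A single MIR17HG locus returned, at chr13:92006851-92006920, 3206 nt past miR-92a-1, with 0, 11 and 11 reads, and its 4 nt stretches in replicates 2 and 3 lay within 2 nt. In replicate 2 the other peak was at chr13:92003748-92003806, 103 nt past miR-92a-1, with 6 reads. Replicate 1 had its downstream peaks at chr13:92004198-92004306 with 9 reads, chr13:92004581-92004655 with 6 and chr13:92005298-92005388 with 13. None of these overlapped a peak of another replicate. The gene ID carries version 6 in replicate 1 and version 5 in replicates 2 and 3, and the last AOPEP peak likewise ended at 97848990 in replicate 1, against 97849525 and 97849528 in the others. Whether the lists were made with different annotated gene ends was not tested.

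DLEU2 reads lay mostly in the last part of its span, with none on the miR-15a and miR-16-1 hairpins. The last 4 segments of its span held 81.2%, 100% and 62.8% of its reads, and the pair lies 78.3% of the way along, 20.337 kb before the 3′ end. Within 5 kb of the pair there were 57, 0 and 39 reads, or 18.2%, 0% and 18.1%, in 10.8% of the span. Their mean was 12.1% ± 10.5 (SD, n = 3), and the reads per kb were 1.83 and 1.82 times those in the rest of the span in replicates 1 and 3. Replicate 2, with 14 reads in all, had its nearest peak 5074 nt downstream, and without that replicate the mean was 18.2%. Within 10 kb of the pair, in 21.5% of the span, lay 44.1%, 71.4% and 38.1% of the reads. The reads per kb there were 2.89, 9.15 and 2.26 times those in the rest of the span, with 10 reads in replicate 2.

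The nearest DLEU2 peaks past the pair lay 1342 nt downstream in replicate 1, with 13 reads, and 436 nt downstream in replicate 3, with 9. The locus at chr13:50696788-50696956, near the 5′ end of the span, had 8, 0 and 20 reads. The locus at chr13:50617338-50617528, 5581 nt past miR-16-1, had 10, 0 and 14, and its stretches lay within 1 nt in the 2 replicates. Another, at chr13:50626650-50626920 and 3313 nt before miR-15a, had 7, 0 and 14. The strongest DLEU2 peaks differed by replicate: chr13:50612020-50612156 with 36 reads, chr13:50617972-50618035 with 10 and chr13:50696861-50696956 with 20. On the opposite strand within the span, ENSG00000176124 had 20, 3 and 15 reads.

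**Figure D5:**
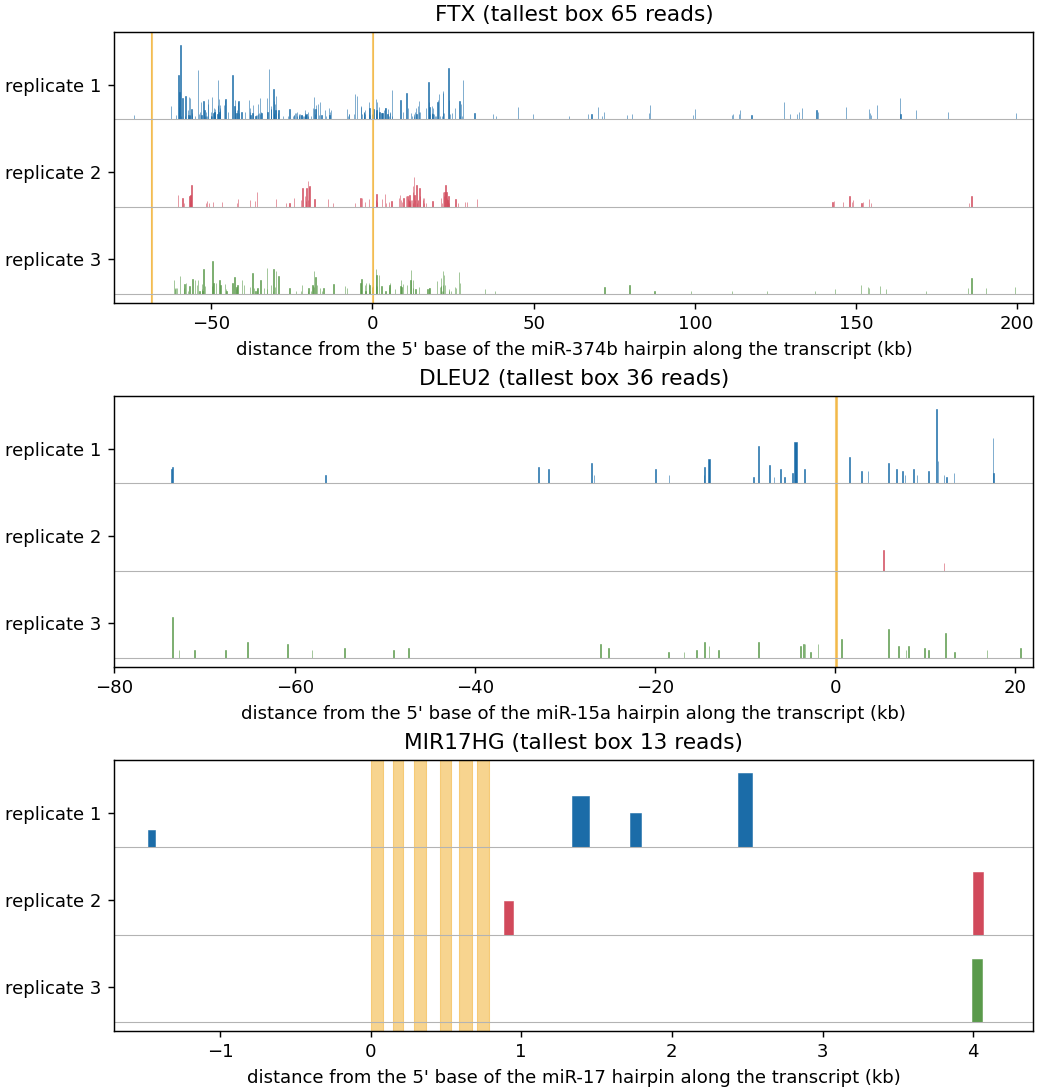
Peaks of FTX, DLEU2 and MIR17HG in each replicate, drawn as boxes as tall as their reads (1 scale per panel, tallest 65, 36 and 13 reads), along the transcript in kb from the 5′ base of the miR-374b, miR-15a or miR-17 hairpin; orange bands mark the hairpins, with miR-374a/miR-545 at the far left of the FTX panel. No FTX box lies on the left band, and all MIR17HG boxes but 1 lie right of the hairpins.

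The 4 hosts had different layouts around their hairpins. Upstream of the cluster lay 135, 61 and 87 of the AOPEP peaks, with 4, 4 and 3 overlapping the cluster and 5, 7 and 4 downstream. For DLEU2, 49.5%, 100% and 33.5% of the reads were downstream of the pair, and for FTX 37.5%, 63.1% and 41.1% were downstream of miR-374b/miR-421. For MIR17HG the downstream share was 90.3%, 100% and 100%. Within 5 kb of the hairpins, the reads per kb of AOPEP were 16.6, 109 and 23.4 times those in the rest of the span. With every listed peak, the ratio reached at most 2.12 for FTX, with both pairs pooled, and 1.83 for DLEU2. As miR-374a/miR-545 had 0 reads within 5 kb, the ratio for miR-374b/miR-421 alone would be higher and was not computed. The difference between hosts was not tested. For MIR17HG the region within 5 kb is the whole span and gives no such value. AOPEP was picked with its signal near the 3′ end already known, and its cluster lies there. The AOPEP ratios are therefore not independent of that choice.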

How the data were processed

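The deposited data are 1 list of peaks per replicate on hg19, with 8 columns and no header. Per the submitters' processing notes, FastQC, SAMtools, STAR and bedtools were used, and no versions or roles are given. Which caller and annotation made the peaks is not given in the sources used here. With every peak the authors deposited a p-value; it reached at most 0.0491 and was used only as a filter in an alternative. Peak names end in 2 whole numbers after the gene ID, a counter and a value of at least 3. This value was read as the reads in the peak, since it correlated with the p-value across peaks at a Spearman rho of -0.988, -0.973 and -0.964. No source states this reading.

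Peaks were selected by gene ID, and overlapping peaks of an ID on a strand were merged over replicates into loci; the merging was tested on simulated data. Genome positions of the 15 hairpins in hg19 were entered by hand from general knowledge of the public microRNA annotation, as no table used here gives them. All 15 lengths and the spacings within each host equalled those of RefSeq (GRCh38.p14). Every distance to a hairpin rests on them.

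The design has 1 group, so no test between conditions was run; values are given per replicate. Shares carry exact Clopper-Pearson 95% intervals, for counting error only. The text names the 4 hosts, per host up to 5 loci with the highest mean share among those in the most replicates, the strongest peak of each replicate, the loci nearest the hairpins, and the 2 most similar gene IDs. Single further peaks, gaps and groups of span segments were named after their values were seen. The members and lists were chosen with earlier results of these data known. Alternatives were stricter sharing, other windows, a p filter, other weights and leaving out each replicate. Python 3.11.15, pandas 2.3.3, NumPy 2.4.6, SciPy 1.17.1 and matplotlib 3.10.9 were used.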

Additional observations from a re-analysis of the deposited data

Results flagged for a closer look

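The running number in each peak name skips values, so some numbers have no listed peak. For AOPEP, 46.1%, 46.3% and 57.8% of the numbers up to the highest had no listed peak in replicates 1, 2 and 3. For FTX the values were 36.1%, 40.3% and 40.5%. These numbers were used in no comparison, and what they stand for was not tested.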

How the results depend on the processing

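Of 139 alternative values, 117 stayed within 1 SD of the replicates, or within 1.5 times for counts, and 22 moved; all are shares or counts, so none could change sign. A limit of 1 SD over 3 replicates is wide. Leaving out 1 of 3 values moves their mean by less than 1 SD by arithmetic. Shares of a fixed host, region or locus without 1 replicate were therefore bound to stay within the limit. The MIR17HG share within 5 kb was also fixed at 100%, because that region is its whole span. The 117 thus include values that could not move. Shares per Mb and shares of the first locus without each replicate were added after seeing the data. Requiring loci in all 3 replicates left 11 for AOPEP, 24 for FTX and 0 each for MIR17HG and DLEU2, against 55, 101, 1 and 10 in at least 2. With only peaks at or below the median p of their list, DLEU2 kept 6. The AOPEP locus strongest by reads held 5.96% of the AOPEP reads as a mean over replicates. The locus picked by peaks in place of reads held 2.55% of the AOPEP peaks. The last 20% of the AOPEP span held 72.5%, against 50.3% in the last 10%. Near the hairpins FTX had 4.02% of its reads within 1 kb, 20.9% within 10 kb and 6.03% without peaks that overlap another gene ID, against 11.3%. MIR17HG had 27.9% within 1 kb, against 100%, and DLEU2 had 1.40% within 1 kb and 51.2% within 10 kb, against 12.1%. Wider windows and stricter sharing change these values by construction; for the others the cause was not tested.

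Leaving out each replicate in turn gave 25 to 30 AOPEP loci, 35 to 68 FTX loci, 0 to 1 MIR17HG locus and 0 to 9 DLEU2 loci in at least 2 replicates, with fewer pairs of lists to compare. Shares of all reads ran over 0.169 to 0.401% for AOPEP, 0.335 to 0.565% for FTX, 0.0277 to 0.0490% for DLEU2 and 0.00352 to 0.00994% for MIR17HG. The share near the hairpins ran over 28.4 to 50.2% for AOPEP, 9.57 to 12.5% for FTX and 9.07 to 18.2% for DLEU2. The AOPEP share in the last 10% of the span ran over 38.0 to 56.6%. The strongest locus held 4.67 to 6.72% for AOPEP, 1.72 to 3.01% for FTX, 5.93 to 35.7% for DLEU2 and 32.4 to 82.4% for MIR17HG. It was picked again for each set of replicates, so these ranges can mix different loci. The 35.7% for DLEU2 came from chr13:50617972-50618035, which had a peak in replicate 2 alone, with 10 of the 14 reads there. No paired analysis was possible because the series has 1 group. The small number of reads limits MIR17HG, and DLEU2 in replicate 2.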
